A study of Mus musculus with 9 samples.

Results

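The comparison described here sets EBs (embryoid bodies, the free aggregates that mESCs form once they are taken out of stem cell medium) exposed to 100 nM retinoic acid (RA) against EBs exposed to 10 nM RA, both on day of differentiation 8 (DoD 8). It rests on 2 of the 9 arrays of the series, the array of 100 nM RA (R7) and the array of 10 nM RA (R8), which were chosen by their labels. Each array carried mixed total RNA of 6 biological replicates, so there was 1 value per gene and dose and no replicate error. Both cultures came from 1 mESC line, labelled G6B-2 (B6G-2 in the study's text), formed EBs from DoD 0, received RA for 4 days between DoD 2 and DoD 6, and were collected 2 days after the exposure had ended. The other arrays used for comparison were EBs on DoD 8 with 1 nM RA (R9) or with the vehicle, given in the labels as 0.1% ethanol (C), neural cultures of day 29 after the same exposure to 100 nM (R7), 10 nM (R8) or vehicle (C), mESCs of DoD 0 and untreated EBs of DoD 2. An EB is a mixture of cell types, and a gene can differ between arrays of whole EBs because cells of a type are more or fewer or because each cell holds more or less RNA. These cannot be told apart here.

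RA is made in the embryo from vitamin A and acts through nuclear receptors (RARs) that sit on DNA together with retinoid X receptors. The receptors turn on genes that destroy RA and, in a dose-dependent manner, *Hox* genes, which give cells their position along the head to tail axis. In differentiating mESCs, RA speeds the loss of pluripotency genes and favors hindbrain and spinal cord types of neural cells over forebrain types. It also acts on mesoderm, where it is known for its part in heart, kidney and body wall development.

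Values are given as signals on a scale where the dimmest value on every array is near 5, after the arrays were set to a shared median. A probe counted as detected at an unscaled signal of 29.1 or more. Differences are log2 of the R7 signal over the R8 signal, so that 1 is 2-fold. Where a gene was detected on only 1 of the 2 arrays, the difference is a bound ("at least"), computed against the detection level. A gene was counted as higher or lower when it differed at least 2-fold, and since there was 1 array per dose, this is a limit on size and not a test.

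Of 12931 genes detected on R7, R8 or both, 488 (3.77%) were at least 2-fold higher in R7 and 347 (2.68%) were at least 2-fold lower. The balance depended on the processing, since the counts were 657 higher and 212 lower without scaling, and 344 higher and 172 lower with a detection level of 50. The difference was at least 4-fold for 68 genes on the higher side and 14 on the lower side, and ran from -2.69 to 3.78. The higher side was brighter. The brighter of the 2 signals had a median of 192 over the higher genes and 93.4 over the lower genes, against 425.8 over all genes measured, and it was under 100 for 131 of the 488 higher genes and for 188 of the 347 lower ones. Bounds made up 127 of the higher and 109 of the lower genes. Among the 7213 genes with a brighter signal of 300 or more, 176 (2.44%) were higher and 53 (0.735%) were lower.

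The R9 and C arrays of the same day gave a yardstick for how far apart arrays of neighboring conditions lay, although it also holds any effect of 1 nM RA. Between R9 and C, 276 genes (2.15%) were at least 2-fold higher and 195 (1.52%) lower of 12814 measured, and among 7018 genes with a brighter signal of 300 or more only 25 and 12 were. The robust SD of the log2 difference over all probes detected on both arrays was 0.403 between R7 and R8 and 0.297 between R9 and C. In the R9 and C pair the SD was 0.577 for the second dimmest decile of the probes and 0.15 for the brightest decile. A difference of a given size is therefore much further outside this spread for a bright gene than for a dim one, and the SD at a gene's own signal is called the yardstick SD below.

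**Figure D1:**
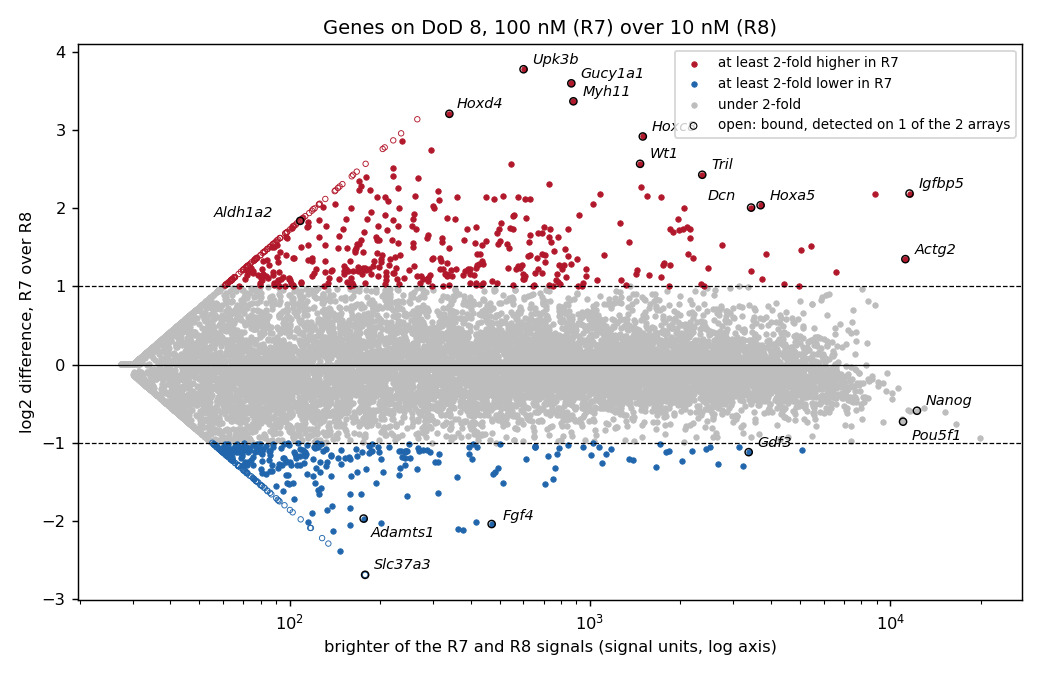
Log2 difference of R7 over R8 on DoD 8 (vertical axis) against the brighter of the R7 and R8 signals in signal units on a log axis (horizontal axis), 1 point per gene with a resolved signal level, with 2-fold limits dashed and bounds drawn open. Higher genes such as *Upk3b*, *Myh11* and *Hoxc8* reach 3.78, 3.37 and 2.92, while lower genes crowd at dim signals, with 188 of 347 under 100.

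The gene with the largest difference was *Upk3b*, a uroplakin known as a marker of mesothelium, with a signal of 600.6 in R7 and 43.7 in R8 (3.78). It was at 6.9 in R9 and 5.0 in C, under detection. *Gucy1a1*, a subunit of the nitric oxide receptor guanylate cyclase of smooth muscle, had 866.3 in R7 and 71.3 in R8 (3.60), with another probe at 1.18. *Wt1*, the transcription factor of mesothelium and of the developing kidney and gonad, had 1467.5 in R7 and 247.9 in R8 (2.57), with 286.0 in R9 and 289.4 in C, so that the 100 nM array stood apart from the other 3 of DoD 8. *Tril*, an accessory protein of Toll-like receptors, had 2363.3 in R7, against 439.9 in R8 (2.43), 175.3 in R9 and 71.4 in C, so its level followed the dose over all 4 arrays. The remaining genes of the 20 largest increases included the growth factor gene *Gdf10* (235.0 in R7 and 16.7 in R8, at least 2.96), the chemokine gene *Cxcl15* (266.0 and 22.8, at least 3.14), the cadherin gene *Dchs1* (207.2 and 12.9, at least 2.78), the sialyltransferase gene *St8sia2*, whose product adds polysialic acid to NCAM (296.2 and 44.0, 2.75), *Zfhx4* (179.0 and 25.1, at least 2.57) and the phosphodiesterase gene *Pde3a* (220.0 and 38.3, 2.52). A second probe of *Pde3a* gave 0.05, and a second probe of *Kcnh2*, a potassium channel gene with 167.2 in R7 and 29.4 in R8, gave -0.14 where the first gave at least 2.47.

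Other probes of the same gene give the only repeat measurement within these 2 arrays. Of the 488 higher genes, 160 had another probe that was measured, 213 such probes in all. Of these, 141 had the same sign, 58 were also at least 2-fold higher and 3 were at least 2-fold lower. Of 75 other probes for 66 of the lower genes, 42 had the same sign, 11 were at least 2-fold lower and 1 was at least 2-fold higher. For scale, 919 of all 24286 measured probes passed the 2-fold limit upward and 849 passed it downward. Over the probes detected on both arrays the median difference was -0.089, so a sign below 0 was common among probes in general. The sign of another probe alone therefore says little for the lower genes. Probes of a gene can read different transcripts, and which probe reads the gene best was not tested.

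The genes of the retinoid pathway gave mixed values. *Rarb*, which encodes RARβ and is a direct target of RA receptors, had 574.5 in R7 and 239.9 in R8, a difference of 1.26 with a yardstick SD of 0.299. Its level did not follow the dose over the whole series, because C had 339.6, R9 107.6, R8 239.9 and R7 574.5. *Cyp26a1*, the enzyme that clears RA and another direct target, had 353.6 in R7 and 368.4 in R8 (-0.06), against 79.3 in R9 and 70.1 in C. Both arrays thus lay well above R9 and C, with close values at 10 nM and 100 nM, 2 days after RA had been withdrawn. These genes are shown with their promoters because they are the only members of the retinoid lists whose RefSeq promoter window holds a direct repeat of the hexamer that RARs bind, with a spacer of 5 bases (DR5). The windows run from 250 bases before to 50 bases after the transcription start in the build GRCm38.p6, and the DR5 is in capitals. *Rarb* lies on the minus strand at chr14:16575427-16575726, with the DR5 from -53 to -37 relative to the start. *Cyp26a1* lies on the plus strand at chr19:37697558-37697857, with the DR5 from -32 to -16, where the repeat reads on the other strand.
Rarb: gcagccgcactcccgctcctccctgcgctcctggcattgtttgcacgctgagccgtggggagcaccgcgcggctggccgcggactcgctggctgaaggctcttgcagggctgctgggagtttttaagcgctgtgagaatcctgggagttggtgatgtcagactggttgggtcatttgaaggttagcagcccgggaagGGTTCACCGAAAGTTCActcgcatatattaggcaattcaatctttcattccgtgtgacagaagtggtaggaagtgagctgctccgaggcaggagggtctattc
Cyp26a1: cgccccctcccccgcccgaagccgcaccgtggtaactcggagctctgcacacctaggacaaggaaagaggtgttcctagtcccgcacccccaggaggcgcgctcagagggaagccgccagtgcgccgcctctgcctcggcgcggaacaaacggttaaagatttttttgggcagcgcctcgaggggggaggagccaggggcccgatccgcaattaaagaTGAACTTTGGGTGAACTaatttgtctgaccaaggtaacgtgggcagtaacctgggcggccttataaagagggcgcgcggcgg

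The search took the hexamer AGGTCA or its variant AGTTCA, and likewise GGGTCA or its variant GGTTCA, in any pair and on both strands. A DR5 was found in the windows of 31 of 27025 genes (0.115%), and in those of 1 of 11 retinoid handling genes and 1 of 12 receptor genes that had a window. A match is a description of the letters in the window.

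Of 14 measured genes that make, carry or clear RA, 5 were at least 2-fold higher in R7 and none was lower, with a median of 0.31. *Aldh1a2*, the main RA synthesizing enzyme of the embryo, had 108.4 in R7 and 27.4 in R8, at least 1.84. Its level in R9 was 104.6 and in C 20.6, so R8 was the array that lay low among the RA arrays, and with a yardstick SD of 0.577 at this dim signal the order of the doses is not secure. *Stra6*, the receptor through which cells take up retinol, had 413.6 in R7, 140.6 in R8 (1.56), 42.6 in R9 and 26.0 in C, in the order of dose. *Crabp2*, which brings RA to the receptors, had 793.7 in R7 and 388.5 in R8 (1.03), and *Crabp1*, which binds RA in the cytoplasm, had 466.2 and 579.1 (-0.31). *Rbp4*, the retinol carrier, had 97.8 in R7 and 31.9 in R8 (1.62), and *Aldh1a1*, another RA synthesizing enzyme, 84.9 and 39.4 (1.11). With a detection level of 50 the calls of *Rbp4* (0.91) and *Aldh1a1* (0.71) ended and *Aldh1a2* had 1.06, and with a level of 100 the list median was 0.06. *Cyp26b1*, a second clearing enzyme, had 1058.8 in R7 and 907.2 in R8 (0.22).

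Among 11 measured nuclear receptors and cofactors 3 were higher, *Rarb* and the orphan receptors *Nr2f1* (COUP-TFI; 2755.5 in R7 and 957.4 in R8, 1.53) and *Nr2f2* (COUP-TFII; 288.7 and 91.3, 1.66). *Nr2f1* had 631.6 in R9 and 419.7 in C, so its signals were ordered by dose, while *Nr2f2* had 100.4 in R9 and 112.1 in C and among the arrays of DoD 8 stood out in R7 alone. *Rarg* (279.2 in R7 and 418.7 in R8, -0.58) and *Rxra* (207.2 and 307.5, -0.57) lay lower in R7, under 2-fold. The list median was 0.13.

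*Hox* genes of the low paralog groups had the highest median of the 35 lists. Of 12 measured genes of paralog groups 1 to 5, which are used in the hindbrain and neck, 6 were at least 2-fold higher in R7 and none lower, with a median of 1.16. *Hoxa5* had 3696.3 in R7 and 900.7 in R8 (2.04), with 328.5 in R9 and 160.1 in C, and at a yardstick SD of 0.18 it was among the best measured. *Hoxb5* had 2146.5 in R7, 641.1 in R8 (1.74), 87.8 in R9 and 10.7 in C. *Hoxb2* had 1972.4 in R7, 599.3 in R8 (1.72), 367.3 in R9 and 181.8 in C. For these genes each step up in dose gave a higher signal. *Hoxd4* (340.1 in R7 and 36.7 in R8, 3.21), *Hoxa4* (221.2 and 25.9, at least 2.87) and *Hoxa2* (230.0 and 47.9, 2.26) were near or under detection at 10 nM and clear of it at 100 nM. *Hoxb1*, an early responder to RA, had 228.2 in R7 and 203.0 in R8 (0.17), *Hoxb4* 640.7 and 430.7 (0.57) and *Hoxb3* 58.1 and 66.6 (-0.20).

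Of 15 measured genes of groups 6 to 13, which are used along the trunk, 7 were higher and none lower, with a median of 0.94. They were *Hoxc8* (1498.3 in R7 and 198.4 in R8, 2.92), *Hoxb6* (162.6 and 14.9, at least 2.43), *Hoxc6* (1716.6 and 389.4, 2.14), *Hoxb7* (1262.5 and 360.4, 1.81), *Hoxc9* (633.3 and 201.1, 1.66), *Hoxa7* (708.3 and 284.9, 1.31) and *Hoxb9* (179.9 and 78.0, 1.21). All were of groups 6 to 9, while the members of groups 10 to 13 that were measured ranged from at most -0.76 for *Hoxc10* to 0.85 for *Hoxc13*. Dimmer probes of *Hoxc8* (0.13), *Hoxc6* (-0.31) and *Hoxb7* (at least 0.11) did not show the difference, and a second probe of *Hoxa7* gave 0.78. The 1 nM step differed between the groups of paralogs as they were listed. Between R9 and C the median was 0.95 for groups 1 to 5, with 4 of 9 higher, and -0.05 for groups 6 to 13, with 0 of 12 higher, and this difference was not tested. Of the proteins that bind DNA together with HOX proteins, *Meis2* had 842.3 in R7 and 322.3 in R8 (1.39), and *Meis1* 2578.9 and 1389.0 (0.89). *Tshz3* (673.1 and 210.5, 1.68) and *Tshz2* (125.1 and 6.8, at least 2.05), zinc finger genes of the trunk, were also higher, which made 3 of 10 in this list with a median of 0.74. *Cdx1* and *Cdx2*, regulators of posterior *Hox* genes, differed little (220.7 and 234.7, -0.09, for *Cdx1* and 249.5 and 235.4, 0.08, for *Cdx2*).

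**Figure D2:**
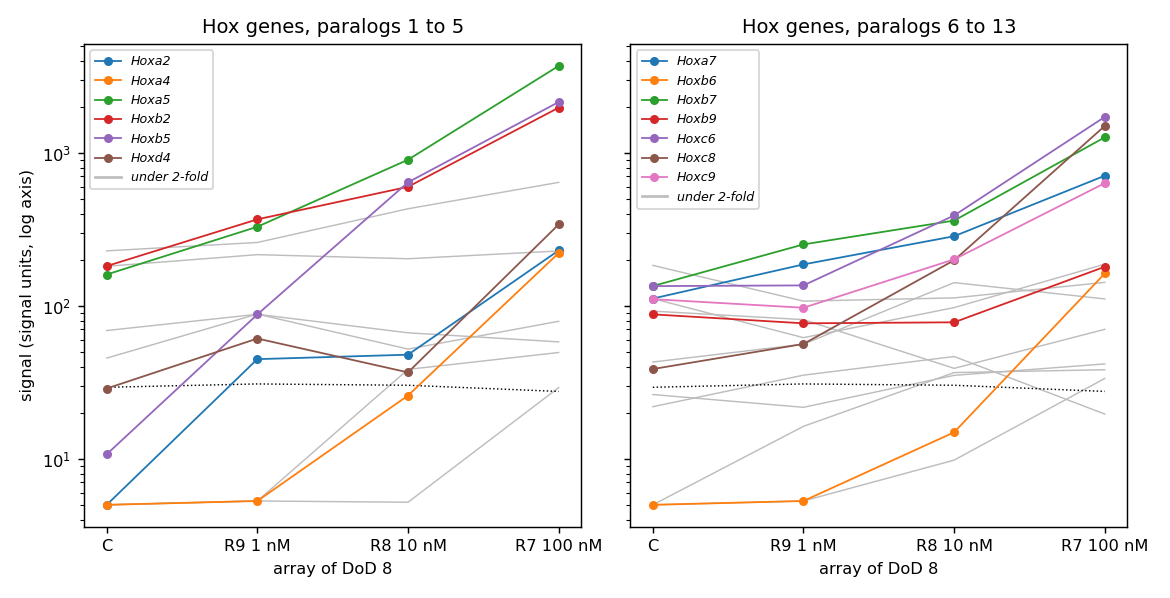
Signals (signal units, log axis) of the measured *Hox* genes on the DoD 8 arrays C, R9, R8 and R7 from left to right, groups 1 to 5 in the left panel and 6 to 13 in the right. Colored lines are the 6 and 7 genes at least 2-fold higher in R7 than in R8, gray lines the others, and the dotted line the detection level. *Hoxa5*, *Hoxb2* and *Hoxb5* climb at every dose, while *Hoxb6* is above detection in R7 alone.

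Genes of smooth muscle split into a few that were higher and a larger number under 2-fold. *Actg2*, the enteric smooth muscle actin, had 11215.2 in R7 and 4399.1 in R8 (1.35), at a yardstick SD of 0.15, with 1770.4 in R9 and 1167.1 in C. Its signals were thus ordered by dose over the 4 arrays. *Myh11*, the smooth muscle myosin heavy chain, had 880.1 in R7, 84.8 in R8 (3.37), 23.0 in R9 and 5.8 in C. *Mylk*, the kinase that switches this myosin on, had 1550.0 in R7, 347.3 in R8 (2.16), 209.8 in R9 and 75.9 in C, and its other probes gave 2.41 and 3.07. *Itga8*, an integrin of smooth muscle and kidney mesenchyme, had 160.0 in R7 and 40.0 in R8 (2.00). These were the 4 of 21 measured members past 2-fold, none was lower, and the median was 0.24. *Acta2*, the vascular smooth muscle actin, differed by 0.07, *Tpm1* by 0.26, *Tpm2* by -0.03, *Cald1* by 0.09 and *Tagln* by 0.60. *Myocd*, the coactivator that drives this program, had 136.1 in R7 and 74.8 in R8 (0.86), and *Srf*, the factor it works with, 2474.1 and 2089.5 (0.24). *Pgm5*, a phosphoglucomutase relative of muscle adhesion sites outside the list, had 546.6 in R7 and 91.8 in R8 (2.57).

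SRF binds the CArG box, and a CArG box stood in the promoter windows of 4 of 19 smooth muscle genes with a window (21.1%) against 1.81% of all genes with one. The 4 genes were *Cnn2*, *Myl6*, *Vcl* and *Srf*, whose differences of 0.06, 0.13, 0.49 and 0.24 were all under 2-fold. No box was found in a window of the 4 genes past 2-fold. Of 23 smooth muscle genes 19 had a window, and a gene without one was not searched. The absence says only that these letters were not in the windows searched. The *Srf* window is shown because it holds the box at 2 places. It lies on the minus strand at chr17:46556113-46556412, in the same build, with the boxes in capitals.
Srf: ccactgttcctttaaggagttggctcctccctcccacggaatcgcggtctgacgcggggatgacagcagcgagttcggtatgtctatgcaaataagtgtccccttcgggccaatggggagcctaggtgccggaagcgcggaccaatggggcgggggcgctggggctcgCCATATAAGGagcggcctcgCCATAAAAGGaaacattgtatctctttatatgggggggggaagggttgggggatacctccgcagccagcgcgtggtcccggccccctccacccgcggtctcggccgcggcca

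Matrix genes of mesenchyme made up the list with the most members past the limit. Of 27 measured, 14 were at least 2-fold higher in R7 and none was lower, with a median of 1.03. Among the fibrillar collagens, *Col1a1* had 2148.7 in R7 and 698.4 in R8 (1.62), *Col3a1* 236.7 and 32.6 (2.86), *Col1a2* 154.7 and 55.0 (1.49), *Col5a1* 4422.5 and 2158.7 (1.03) and *Col5a2* 104.8 and 24.8 (at least 1.79). *Col1a1* had 786.2 in R9 and 1028.3 in C, so its level at 10 nM was the lowest of the 4 arrays. *Col6a1*, which forms beaded filaments, had 1482.2 in R7 and 307.3 in R8 (2.27), with 239.9 in R9 and 249.9 in C. The small proteoglycans that coat collagen fibrils were higher as well, with *Dcn* at 3437.1 in R7 and 854.5 in R8 (2.01; other probes 2.15, 2.31 and 1.52) and *Lum* at 313.0 and 72.6 (2.11). *Dcn* had 562.0 in R9 and 151.6 in C, in the order of dose. *Igfbp5*, a secreted binder of insulin-like growth factors, had 11577.8 in R7, 2529.6 in R8 (2.19; other probe 1.94), 1873.6 in R9 and 1165.0 in C. *Mgp*, an inhibitor of calcification (631.4 in R7 and 145.5 in R8, 2.12), *Tnc* (1964.2 and 541.5, 1.86), *Vcan* (153.7 and 42.5, 1.86), *Thy1* (620.2 and 237.4, 1.39) and *Fbln2* (1272.3 and 603.8, 1.08) completed the higher members. Fibronectin, *Fn1*, fell just short of the limit with 3127.0 and 1567.9. *Sparc* (1256.1 and 1462.1, -0.22) and *Pdgfrb* (136.7 and 159.6, -0.22) went the other way, under 2-fold. *Postn* (16.2 and 49.4, at most -0.84) did so too. It was under detection in R7, so its decrease beyond this bound was not measured. Between R9 and C the list median was 0.03, with 2 of 23 higher.

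Basement membrane genes, which parietal endoderm makes in quantity, had a median of 0.37, with *Plat*, the tissue plasminogen activator (2124.0 in R7 and 794.5 in R8, 1.42), past the limit of 17 measured. Over all genes 3.77% were higher, so this single call was not read as a result about the list. *Col4a1* differed by 0.53 and *Col4a2* by 0.03.

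The proteases that cut matrix gave values in both directions. *Adamts1*, which cleaves versican, had 45.1 in R7 and 176.3 in R8 (-1.97), with 10.6 in R9 and 5.0 in C, so R8 was the high array and the order was not that of the dose. Its 2 other probes were detected on neither array. *Adamts5*, which cleaves aggrecan and versican, had 144.7 in R7 and 9.8 in R8 (at least 2.26), with 84.4 in R9 and 19.3 in C, so that R8 was the low array. Another probe of *Adamts5* gave 0.05 (68.9 in R7 and 66.8 in R8). *Adamts12* had 194.6 in R7 and 44.1 in R8 (2.14), but another probe had 107.2 and 161.5 (-0.59), so its direction hangs on the probe. *Mmp2*, the gelatinase of mesenchyme, had 5051.9 in R7 and 1823.3 in R8 (1.47), with 1488.9 in R9 and 1244.7 in C. In all 3 of 17 were higher and 1 was lower, and the inhibitors *Timp2* (2374.8 and 1254.3, 0.92), *Timp3* (2759.0 and 1948.1, 0.50) and *Timp1* (3883.6 and 4537.6, -0.22) stayed under 2-fold.

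Neuronal genes were higher for a good part of the list. Of 29 measured, 12 were at least 2-fold higher in R7 and none was lower, with a median of 0.93. *Dcx*, the microtubule binder of migrating young neurons, had 727.3 in R7, 146.9 in R8 (2.31), 113.9 in R9 and 38.6 in C. *Ncam1*, a neural adhesion molecule, had 1844.2 in R7 and 552.8 in R8 (1.74; other probes 0.18 and 1.62), *Crmp1*, which relays semaphorin signals, 503.4 and 143.9 (1.81), and the RNA binder *Elavl3* 421.6 and 174.7 (1.27). Genes of synapses and transmitters included *Snap25* (322.5 in R7 and 104.9 in R8, 1.62; other probe 0.43), *Syt1* (170.0 and 36.2, 2.23), the inhibitory transmitter transporter *Slc32a1* (390.2 and 117.5, 1.73), the glutamate transporter *Slc17a6* (208.3 and 102.1, 1.03) and *Gad2*, an enzyme of GABA synthesis (77.9 and 10.8, at least 1.37). Another probe of *Syt1* gave at most -0.73. The higher neuron genes were *Dcx*, *Syt1*, *Crmp1*, *Ncam1*, *Slc32a1*, *Snap25*, *Ina*, *Rbfox3*, *Gad2*, *Elavl3*, *Stmn3* and *Slc17a6*. The neuronal tubulin *Tubb3* had 133.6 in R7 and 164.5 in R8 (-0.30), *Stmn2* 725.6 and 735.7 (-0.02) and *Map2* 26.6 and 42.3 (at most -0.62). The general neuron genes thus did not all follow. Some of the higher genes already had a signal in the mESCs of DoD 0, with *Crmp1* at 1075.1, above its R7 level. There *Slc32a1* had 248.4 and *Snap25* 218.7, both between their R8 and R7 levels. *Ncam1* had 115.9, *Syt1* 54.6 and *Dcx* 5.8 on DoD 0. Of the defining neurogenic factors, *Nhlh1*, *Nhlh2*, *Neurod1* and *Neurod4* were detected on neither array.

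Of 18 neural progenitor genes, *Nes*, the intermediate filament nestin (553.0 in R7 and 165.6 in R8, 1.74), and *Zic1*, a zinc finger factor of dorsal neural tissue (692.4 and 307.2, 1.17), were higher and none was lower (median 0.44). *Sox11* had 8063.4 and 4115.2 (0.97), *Sox9* 1697.0 and 957.5 (0.83), *Pax6* 387.1 and 297.3 (0.38) and *Sox2*, shared with pluripotent cells, 671.5 and 1308.7 (-0.96). *Nes* had 141.8 in R9 and 178.3 in C, so R7 stood above the other 3 arrays of DoD 8. Its signal was 1617.2 in the mESCs of DoD 0 and 294.6 in the EBs of DoD 2.

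Axon guidance genes had 9 of 35 members higher, none lower, and a median of 0.51. They were the repellent ligands *Sema3a* (170.4 in R7 and 33.4 in R8, 2.35), *Slit3* (452.0 and 102.2, 2.15) and *Slit2* (644.9 and 321.6, 1.00), and the receptors *Nrp1* (2044.4 and 610.5, 1.74; other probes 1.76 and 1.20), *Unc5c* (302.0 and 74.9, 2.01), *Dcc* (121.1 in R7 and under detection in R8, at least 2.00), *Robo1* (1759.1 and 716.0, 1.30), *Plxnd1* (327.7 and 146.5, 1.16) and *Ephb3* (62.4 and 29.6, at least 1.05). *Nrp1* had 503.2 in R9 and 644.0 in C, and *Robo1* 725.9 and 622.0, so R7 stood above the other 3 arrays of DoD 8 for both. Several of these genes are also used by mesenchyme and vessels.

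Regional factors of the anterior brain lay on the other side. Of 15 forebrain and midbrain genes, *Otx1* (179.5 in R7 and 474.4 in R8, -1.40) and *En2* (111.1 and 241.4, -1.12) were at least 2-fold lower and none was higher (median -0.46). *Otx1* had 346.3 in R9 and 249.0 in C, and *En2* 224.8 and 149.4. R8 was thus the high array of DoD 8 for both, and the order was not that of the dose. Between R9 and C the list median was 0.47. In R7 and R8, in that order, other members lay under 2-fold. *Otx2*, which forebrain shares with the epiblast, had 501.7 and 765.0 (-0.61) and *En1* 220.2 and 354.5 (-0.69). *Gbx2*, which sets the border of midbrain and hindbrain, had 1897.5 and 3068.4 (-0.69). Of 11 motor neuron and ventral spinal genes, *Olig2*, the factor of motor neuron progenitors (68.6 and 158.8, -1.21), and *Nkx2-9*, a factor of the ventral neural tube (4.7 and 102.3, at most -1.89), were lower and *Chodl* (100.3 and 5.2, at least 1.73) was higher. *Mnx1*, *Chat* and *Nkx2-2* were not detected on either array. *Olig1* had 818.6 in R7 and 1785.2 in R8 (-1.12) and, in the mESCs of DoD 0, 12471.7. With *Slc1a2*, a glutamate transporter of astrocytes (87.8 in R7 and 38.7 in R8, 1.18), the glia list had 1 of 11 higher and 2 lower, and the astrocyte genes *Gfap* and *S100b* were not detected on R7 or R8.

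**Figure D3:**
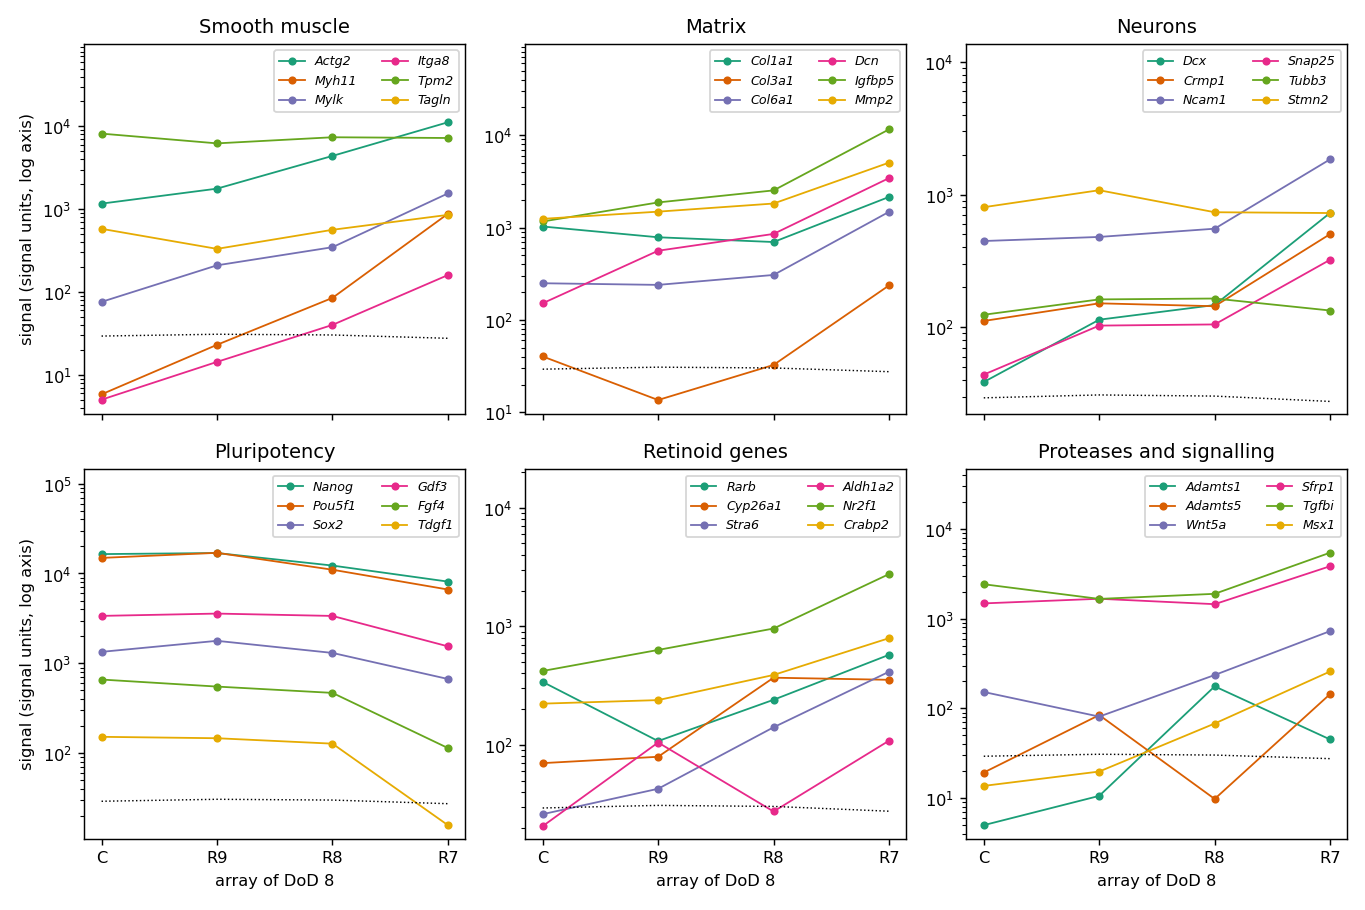
Signals (signal units, log axis) on the DoD 8 arrays C, R9, R8 and R7 from left to right for 6 genes each of 6 groups, with the detection level dotted. *Actg2*, *Myh11* and *Nr2f1* climb with every dose, *Col6a1*, *Ncam1* and *Crmp1* stand out in R7, *Adamts1* peaks in R8, and the pluripotency genes are lowest in R7.

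Secreted signals and their receptors gave more higher than lower genes. In the Wnt list 6 of 29 were higher and none lower (median 0.31). The ligands *Wnt5a* (728.0 in R7 and 235.8 in R8, 1.63; other probe 1.13) and *Wnt4* (323.1 and 138.4, 1.22), the receptors *Fzd6* (417.5 and 202.6, 1.04) and *Fzd8* (88.1 and 28.0, at least 1.54), and the secreted antagonists *Sfrp1* (3849.9 and 1453.0, 1.41; other probe 1.25) and *Frzb* (102.7 and 25.1, at least 1.77) were the members. *Wnt4* had 106.9 in R9 and 272.3 in C, so its R7 level was close to that of the vehicle. In the list of BMP and TGF-β genes 4 of 23 were higher and none lower (median 0.19), namely *Msx1*, a target of BMP signals (258.4 in R7 and 67.9 in R8, 1.93), *Tgfb3* (492.7 and 168.5, 1.55), *Tgfb1* (174.4 and 74.8, 1.22) and *Tgfbi*, which TGF-β induces (5449.6 and 1895.2, 1.52; other probe 1.51). The ligand *Bmp4* had 943.9 and 1277.1 (-0.44). No member of the Hedgehog list (12 measured, median 0.30) or of the Notch list (17 measured, median 0.35) passed the limit in either direction. *Etv1*, a target of FGF signals, had 249.0 and 107.7 (1.21), while its other probes gave -0.76 and -0.77.

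The lower side held genes of pluripotent cells. Of 26 measured members of the naive pluripotency list, 24 were below 0, 4 were at least 2-fold lower in R7 and none was higher, with a median of -0.62. Over all genes 2.68% were at least 2-fold lower and the median was -0.07. Values below 0 were also common in other lists, with 17 of 19 simple epithelium, 20 of 23 glycolysis and 12 of 15 control genes. The count of signs alone therefore does not set the pluripotency genes apart. *Fgf4*, a growth factor that OCT4 and SOX2 switch on, had 114.6 in R7 and 470.3 in R8 (-2.04), with 552.8 in R9 and 661.9 in C. *Tdgf1*, the NODAL coreceptor, had 15.9 in R7 and 128.2 in R8 (at most -2.22), with 147.3 in R9 and 152.7 in C. *Gdf3*, a NODAL-like ligand, had 1548.6 in R7 and 3373.9 in R8 (-1.12), with 3582.9 in R9 and 3377.8 in C. *Zfp42*, the marker REX1, had 15.9 in R7 and 78.0 in R8 (at most -1.50). Its only probe was dim in the mESCs of DoD 0 (59.6) and brighter in the day 29 vehicle culture (109.8). Whether this probe follows pluripotency was therefore not settled, and it was not tested. For *Fgf4*, *Tdgf1* and *Gdf3* the 100 nM array thus lay below the other 3 of DoD 8. The core factors were lower by less than 2-fold. *Nanog* had 8126.7 in R7 and 12255.7 in R8 (-0.59), with 16893.4 in R9 and 16432.7 in C, *Pou5f1* (OCT4) had 6634.9 and 11015.9 (-0.73), with 16977.5 in R9 and 14908.2 in C, and *Esrrb* had 10015.2 and 15224.5 (-0.60). Their yardstick SD was 0.15, the smallest on the arrays. The brightest decile of the probes had a median difference of -0.17 between R7 and R8, and these genes are read against that. *Sall4* (5665.5 and 5577.6, 0.02) and *Lin28a* (1457.3 and 1288.4, 0.18) did not share this direction. *Nanog* had 8002.1 in the mESCs of DoD 0.

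Of 12 primed epiblast genes, *Fgf5* (51.6 in R7 and 112.3 in R8, -1.12) was lower and none was higher (median -0.24). The Nodal list had 2 of 15 lower, *Gdf3* and *Tdgf1* (median -0.19), with *Nodal* itself at 1965.1 and 3638.2 (-0.89). In the FGF list *Fgf4* and *Fgf5* were lower and *Etv1* higher of 22 (median -0.13). Of 15 primitive streak and mesoderm genes, *Lhx1*, a factor of kidney and head mesoderm (416.6 in R7 and 122.8 in R8, 1.76; other probe at least 2.34), and *Osr1*, of intermediate mesoderm (99.8 and 46.7, 1.09), were higher and none was lower, while the median was -0.37.

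The other large decreases were mostly dim. *Slc37a3*, a sugar phosphate transporter relative, had 24.0 in R7 and 178.3 in R8 (at most -2.69), and *Foxn4*, a factor of retinal and spinal progenitors, 28.1 and 147.6 (-2.39). *Ddx4*, the germ cell helicase, had 87.5 in R7 and 378.7 in R8 (-2.11), with 298.7 in R9 and 194.5 in C. *Krt42*, a keratin, had 84.4 in R7 and 363.0 in R8 (-2.10; other probe at most -1.32), with 584.9 in R9 and 1538.9 on DoD 2. *Lrpprc*, which stabilizes mitochondrial RNA, had 103.5 in R7 and 417.4 in R8 (-2.01). Among bright genes, chosen after their values were seen, the amino acid transporter *Slc7a3* (1306.9 and 3223.0, -1.30) and *Mreg*, a factor of melanosome transport (1100.9 and 2660.8, -1.27), were lower too.

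Visceral endoderm, which RA also favors in EBs, gave mixed values. Of 17 genes for uptake and carriers, *Apob* (44.6 in R7 and 108.0 in R8, -1.28) and *Apom* (376.2 and 787.9, -1.07), both apolipoproteins, were lower and *Rbp4* was higher, with a median of -0.39. *Apom* had 298.3 in R9 and 201.8 in C, so R8 was its high array. *Amn* (2223.1 and 4302.9, -0.95) and *Apoa2* (486.7 and 841.0, -0.79) were lower by less than 2-fold, *Ttr* had 648.8 and 683.8 (-0.08), and *Alb* was not detected. None of 13 endoderm transcription factors passed the limit, with *Gata6* at 2967.4 and 2357.7 (0.33), *Sox17* at 980.6 and 955.7 (0.04) and *Foxa2* at 191.5 and 168.6 (0.18).

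Lists for other cell types and states gave few calls. Over all 12931 genes 3.77% were higher and 2.68% were lower. Calls of 1 or 2 genes in a list were therefore not read as a result about a cell type. None of 19 simple epithelium genes passed the limit (median -0.30). In cardiac muscle *Ryr2* (81.2 in R7 and 32.5 in R8, 1.32) and *Myh7* (554.6 and 274.0, 1.02) were higher of 20 (median 0.07), and *Myh6*, *Hand2* and *Pln* were not detected. *Cdh5*, the junction cadherin of endothelium, was higher of 22 endothelial and blood genes (96.7 and 48.2, 1.00; median 0.07), and *Ptprc* and the globins *Hba-x* and *Hbb-y* were not detected. *Msx1* was the member past the limit of 15 neural crest genes (median 0.16), with *Sox10* at 33.7 and 5.2, at the edge of detection. Of 16 imprinted growth genes *Igf2r* was higher (6602.9 and 2890.0, 1.19; median 0.28), and of 26 cell cycle genes *Mki67* (3429.4 and 1489.9, 1.20; other probe -0.13) and *Myc* (152.2 and 67.9, 1.16) were, with a median of -0.19. *Mki67* had 3108.0 in R9 and 2621.0 in C, and *Igf2r* 3815.4 and 4135.5, so R8 was the low array of DoD 8 for both. *Cdh5* had 40.6 in R9 and 91.8 in C, so its R7 level was close to that of the vehicle.

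Lists that bear on the state of the cells and RNA stood slightly below 0. Of 22 stress genes *Nqo1* (314.3 in R7 and 655.9 in R8, -1.06) and *Trib3* (203.9 and 421.9, -1.05) were lower and none was higher (median -0.37). Glycolysis and hypoxia genes (23 measured, median -0.17) and widely expressed control genes (15 measured, median -0.18) had no member past the limit. The median of all 12931 genes was -0.07, and 2.68% of them were at least 2-fold lower. The part of these shifts in the other results was not tested.

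**Figure D4:**
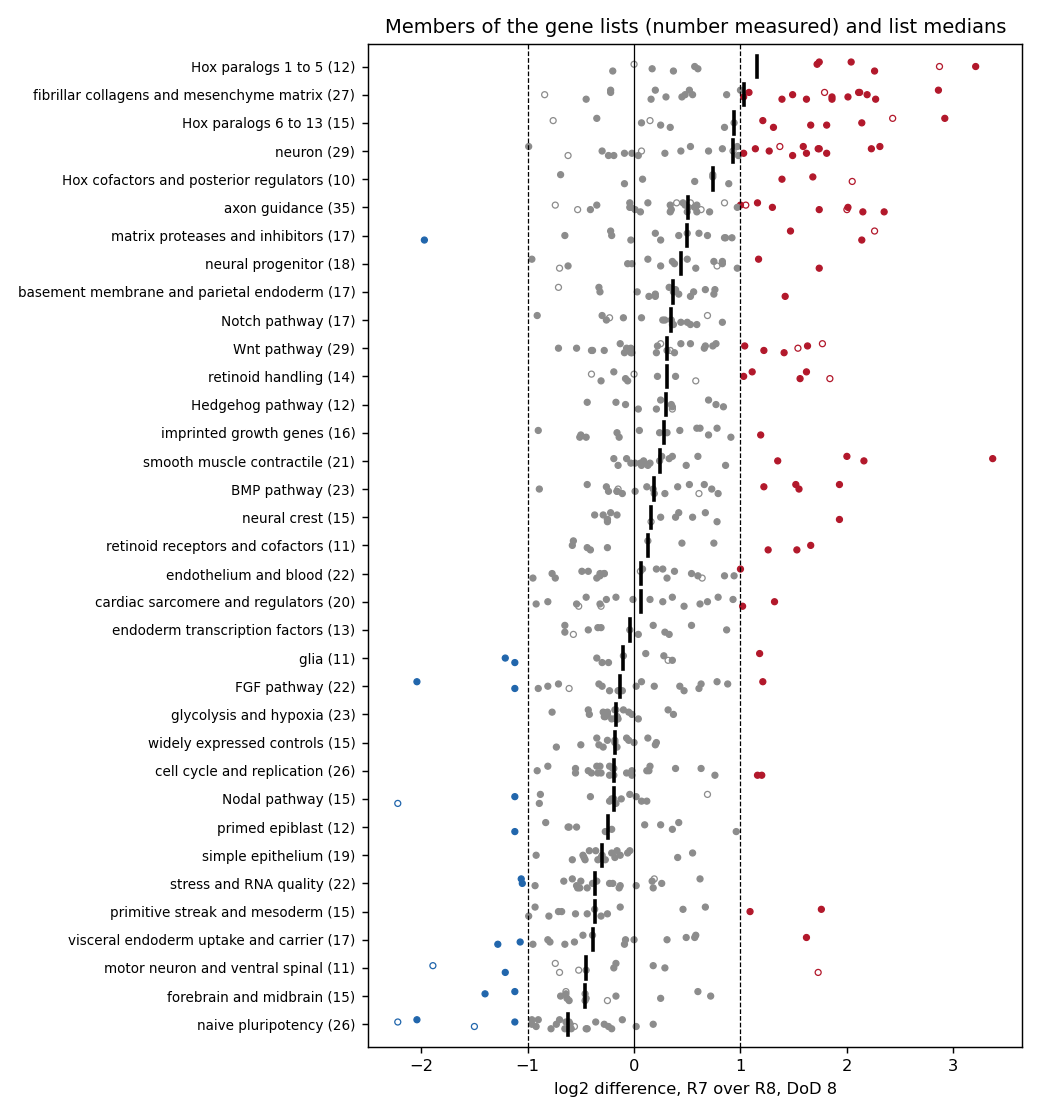
Log2 differences of R7 over R8 on DoD 8 (horizontal axis) for the measured members of 35 gene lists, with the number measured in parentheses, list medians as black bars, 2-fold limits dashed, higher members red, lower members blue and bounds open. The medians run from -0.62 for naive pluripotency to 1.16 for *Hox* groups 1 to 5.

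On day 29, as the labels give the stage (the study's text gives a later day), after the same exposure and a long culture, the step from 10 nM to 100 nM was measured on separate arrays. There 1014 of 13261 genes (7.65%) were at least 2-fold higher in R7 than in R8 and 962 (7.25%) were lower. Background signals were higher on these arrays, with a 0.99 quantile of 77.6 in R7 and 56.0 in R8 against 25.6 and 24.7 on DoD 8, so dim values of day 29 are less certain. Of 476 genes higher on DoD 8 and measured at both stages, 170 (35.7%) were also higher on day 29 and 56 (11.8%) were lower, against 7.15% and 6.54% of all 12120 genes measured at both. The 170 genes were 19.6% of those higher on day 29. Of 285 genes lower on DoD 8, 65 (22.8%) were lower on day 29, which was 8.20% of the genes lower there, and 23 (8.07%) were higher.

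The lists separated between the stages. The *Hox* genes of groups 1 to 5 had a median of 1.62 on day 29, with 7 of 12 higher, and mesenchyme matrix genes a median of 1.33, with 18 of 27 higher. *Hox* groups 6 to 13 had a median of 0.63, with 5 of 13 higher and *Hoxc9* at -0.27. The smooth muscle list had a median of -0.0, with 5 of 20 higher. The single genes named next include the largest differences and do not stand for their lists. *Hoxc8* had 823.9 in R7 and 17.6 in R8 on day 29 (at least 4.96), *Actg2* 1301.5 and 62.2 (4.39), *Upk3b* 1027.2 and 4.5 (at least 5.28) and *Col6a1* 12477.8 and 3523.0 (1.82). *Aldh1a2* had 142.5 and 40.4 (1.82), with the R8 signal under the background quantile of that array (56.0). The bounds of *Hoxc8* and *Upk3b* were computed against the detection level of 29.1, below this quantile, so bounds set at the quantile would be smaller. In the day 29 vehicle culture *Hoxc8* had 22.8, *Actg2* 302.0, *Upk3b* 171.0 and *Col6a1* 1877.7. For *Actg2* and *Upk3b* the R8 signal thus lay below that of the vehicle. The retinoid handling list as a whole had a median of -0.93 on day 29, with 2 of 13 higher and 6 lower. *Adamts1* had 98.2 and 163.4 on day 29 (-0.73), in the same direction as on DoD 8 but under 2-fold. The neuron list lay on the other side, with a median of -1.58 on day 29 and 19 of 28 lower. *Dcx* had 185.0 in R7 and 711.7 in R8 on day 29 (-1.94), *Snap25* 295.0 and 2426.7 (-3.04) and *Slc32a1* 122.7 and 1215.9 (-3.31). The vehicle culture of day 29 had 422.3 for *Dcx*, 808.1 for *Snap25* and 457.3 for *Slc32a1*, each between the R7 and R8 signals. The cardiac list had a median of -1.91 on day 29, with 14 of 23 lower, against 0.07 on DoD 8. Whether these differences between stages exceed the spread of replicates was not tested.

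The R9 and C pair shares no array with R7 and R8. Of 397 genes higher in R7 than in R8 and measured in both comparisons, 39 (9.82%) were at least 2-fold higher in R9 than in C and 12 (3.02%) were lower, against 2.05% and 1.44% of all 12117 genes. The 39 genes were 15.7% of those higher in R9. The comparison of DoD 0 with DoD 2, in which no RA had been given, is set beside it. Between the mESCs of DoD 0 and the EBs of DoD 2, 599 of 12575 genes (4.76%) were at least 2-fold higher and 763 (6.07%) lower in the mESCs. Of 378 of the genes higher in R7 than in R8, 66 (17.5%) were higher in the mESCs and 49 (13%) were lower, against 4.5% and 6.24% of all 11895 genes measured in both comparisons. A share above that of all genes was thus also found where no RA was given. Of 317 lower genes, 19 (5.99%) were lower and 15 (4.73%) were higher in R9 than in C.

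**Figure D5:**
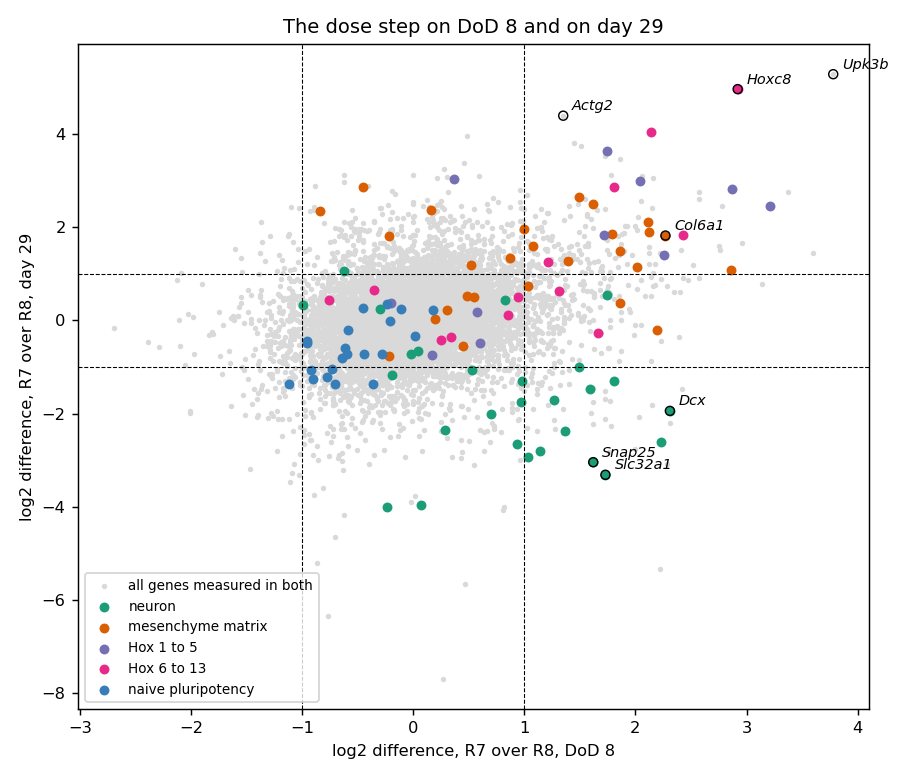
Log2 difference of R7 over R8 on day 29 (vertical axis) against that on DoD 8 (horizontal axis), 1 point per gene measured at both stages, with members of 5 lists in color and 2-fold limits dashed. Many *Hox* and mesenchyme matrix genes lie above 0 on both axes, while many neuron genes lie right of 0 and below it, such as *Snap25* at 1.62 and -3.04.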

How the data were processed

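Total RNA was measured on Illumina MouseWG-6 arrays, 9 in all, 1 per condition. The methods state that RNA of 6 biological replicates was mixed per condition, and samples were grouped by their labels. The labels name ethanol as the vehicle and the series text another solvent. The log2 values deposited by the authors had been median centered in GeneSpring, and hold 1 constant per array and 1 baseline per probe that had been subtracted. A second table holds 9 columns of signals whose names match no sample, and they were not used.

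Signals were recovered from the log2 values, whose ratios between arrays are those of whole steps with a lowest level of 50 steps. A step was taken as 0.1 signal units, since the sources used here do not state its size, and every level scales with it. The tolerance for a whole step count was 0.002 steps, or a share of 1.5e-06 of the level where that was larger. Of 46643 probes, 20134 and 19118 (with the lowest array at the floor) had a single level and 6250 lay at the floor on all arrays. For 1141 bright probes (2.45%) the level was not resolved. Their levels are not printed (855 of the measured genes), and their differences do not depend on it. The recovery rules were chosen after the values were seen. They were tested on simulated data.

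For the detection level of 29.1, background probes were those that 6 or more of the remaining 8 arrays had at the floor. Their 0.99 quantile was found per array, and the middle value was used. Detected probes per array ran from 20737 to 23008, and scale factors, from the median of 16146 probes detected on all arrays, from 0.817 to 1.154. The number of arrays limits the precision. A gene was represented by its brightest probe over the 8 arrays the study reports. Of the probes, 32794 had 1 symbol, 55 several and 13794 none. Promoter windows came from RefSeq (GRCm38.p6). Python 3.11.15, numpy 2.4.6 and pandas 2.3.3 were used.

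The genes named are *Actg2*, *Aldh1a2* and *Adamts1*, genes among the 20 largest increases and decreases, and members of 35 lists, up to 6 past 2-fold in each direction and defining members that did not pass. The remaining list members named were picked after their values were seen. Members and lists were chosen with earlier results of these data known. Other scalings, detection levels, probe choices and a 3-fold limit were tried.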

Additional observations from a re-analysis of the deposited data

Results flagged for a closer look

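Some of the 117 genes named by the rules above differed at least 2-fold in opposite directions on DoD 8 and day 29 between R7 and R8. There was 1 array per dose and stage. Of all genes measured at both stages, 56 were higher on DoD 8 and lower on day 29, and 23 the reverse. Only the named ones are listed here. The difference between the stages was not tested. Higher on DoD 8 and lower on day 29 were *Slitrk1* (2.42 on DoD 8 and -1.46 on day 29), *Dcx* (2.31 and -1.94), *Syt1* (2.23 and -2.60), *Dcc* (at least 2.00 and at most -2.75), *Crmp1* (1.81 and -1.29), *Lhx1* (1.76 and -2.83), *Slc32a1* (1.73 and -3.31), *Snap25* (1.62 and -3.04), *Rbp4* (1.62 and -1.44), *Wnt4* (1.22 and -1.08) and *Myh7* (1.02 and -2.31). *Hpca*, a neuronal calcium sensor, was lower on DoD 8 (at most -2.09) and higher on day 29 (1.01), as was *Olig2* (-1.21 and 1.40). On day 29 the R7 signals of *Dcc* (16.4), *Lhx1* (27.8) and *Rbp4* (31.9) lay under the background quantile of that array (77.6). The R8 signal of *Hpca* (35.2) lay under that of its array (56.0). Their day 29 differences are therefore uncertain in size. The neuron list had a median of 0.93 on DoD 8, just under 2-fold, and -1.58 on day 29.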

How the results depend on the processing

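The counts of higher and lower genes were 488 and 347. With a detection level of 50 the lower count was 172, and with 100 the counts were 229 and 80. With no detection level they were 1500 and 1432, with no scaling the lower count was 212, and with a 3-fold limit they were 160 and 39. Genes past 2-fold between R9 and C numbered 190 and 63 at detection levels of 50 and 100, and 2675 with none. Of all calls 58.4% were higher, 60.5% to 63% under other scalings and 75.6% (657 against 212) with none, and the median of all genes moved from -0.07 to between -0.05 and 0.06. The signs of the endoderm factor, FGF and glia medians turned with the scaling. List medians that moved by over 0.2 were, at a detection level of 50, 0.55 for retinoid handling, 1.72 for *Hox* groups 1 to 5, 1.31 for groups 6 to 13 and -0.18 for motor neuron genes. At 100 they were 0.06, 1.43 (groups 1 to 5), -0.08 (motor neuron) and 0.39 for neural crest. With no detection level they were 0.55 for *Hox* groups 6 to 13, -0.12 for visceral endoderm, -0.16 for motor neuron and -0.12 for neural crest genes. With the mean of a gene's probes visceral endoderm had -0.17. With the brightest probe on R7 and R8, an alternative added after the data were seen, *Hox* groups 1 to 5 had 1.41 and proteases 0.25. Direction was reversed for *Etv1* with the mean of its probes (-0.11) and for *Adamts12* with the brightest probe on R7 and R8 (-0.59), where other probes disagree. Of 1046 values of 117 named genes under alternatives, 918 stayed close, 126 moved and 2 reversed. With a detection level of 50 the calls ended for *Rbp4*, *Aldh1a1*, *Ryr2*, *Zfp42*, *Osr1*, *Frzb*, *Fzd8*, *Chodl*, *Cdh5* and *Slc1a2*. The cause of the other shifts was not tested. No paired analysis was possible because each condition was 1 array.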
